A study of Drosophila melanogaster with 2 samples.

Results

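Genes for eukaryotic translation initiation factors were examined for peaks of the CG4730 protein in Drosophila melanogaster embryos. The members were the protein-coding genes of the dm6 annotation whose symbol starts with eIF, which gave 44 of the 13968 protein-coding genes on the 7 chromosome arms. Chromatin immunoprecipitation with sequencing was made from transgenic embryos aged 0 to 24 hours in which CG4730 was fused to eGFP, and an antibody to GFP pulled down the bound DNA. There was 1 group, CG4730-eGFP embryo, with 2 biological replicates, and every embryo carried the tagged insertion. Whole embryos were used, so a peak cannot be placed in a cell type. A gene was counted as bound where the summit of a peak in the authors' pooled set of 3571 peaks lay within 500 bp of any of its transcript starts. That set had been thresholded by the irreproducible discovery rate (IDR), the estimated share of peaks that do not repeat between the lists compared.

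Translation initiation brings the initiator tRNA and both ribosomal subunits together on the start codon of an mRNA. The eIF2 complex carries the initiator tRNA and eIF2B recharges it with GTP, eIF3 is a large scaffold on the small subunit, the eIF4 proteins bind the mRNA cap and unwind the leader, and eIF1, eIF1A, eIF5 and eIF5B control start-site choice and subunit joining. Early embryos depend on this machinery because much of their first protein comes from stored maternal mRNA. The symbol rule also takes in eIF6, which acts in the formation of the large subunit, and copies such as eIF3g2 and eIF4E7. It leaves out initiation genes with other names, which are given further on.

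Of the 44 genes, 8 were bound: eIF1, eIF2D, eIF3a, eIF3c, eIF3h, eIF3m, eIF5B and eIF6. This was 18.2% (Wilson 95% interval 9.51 to 32.0%), against 13.7% of all protein-coding genes, a value inside that interval. The interval covers counting error only. The conservative set gave 7 of 44 (15.9%), against 12.7% of coding genes. The own thresholded set of replicate 1 gave 5 of 44 (11.4%), against 9.88% of coding genes, and that of replicate 2 gave 6 of 44 (13.6%), against 10.5%. In each of these 4 sets the share of coding genes lay inside the Wilson interval of the members' share. With a window of 100 bp the count was 5 of 44 (11.4%, Wilson 95% interval 4.95 to 24.0%), against 3.97% of coding genes, which lay outside that interval. With 1000 bp it was 9 of 44 (20.5%), against 16.5%. These shares were not tested, because genes are not replicates. The intervals treat genes as independent draws, so a share inside or outside an interval is no test of enrichment at any window.

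Bound members fell in 2 of the 5 groups by symbol. The genes not placed in the eIF2, eIF2B, eIF3 or eIF4 groups, called single factors here, were eIF1, eIF1A, eIF2A, eIF2D, eIF5, eIF5B and eIF6. Of these single factors 4 of 7 were bound, and of the eIF3 subunits 4 of 16. None of the 13 eIF4 genes, the 5 eIF2B genes or the 3 eIF2 genes was bound in the thresholded set. Of all protein-coding genes 13.7% were bound. The groups are small, so a group without a bound gene cannot be told apart from that share. The counts therefore cannot tell whether the complexes differ. The groups were not tested against each other or against all coding genes. The numbered copies eIF3d2, eIF3f2, eIF3g2, eIF4G2 and eIF4H2 were all unbound, as were eIF3d1, eIF3f1, eIF3g1, eIF4G1 and eIF4H1. These copies are also few, so their unbound state cannot be told apart from the share of all coding genes.

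**Figure D1:**
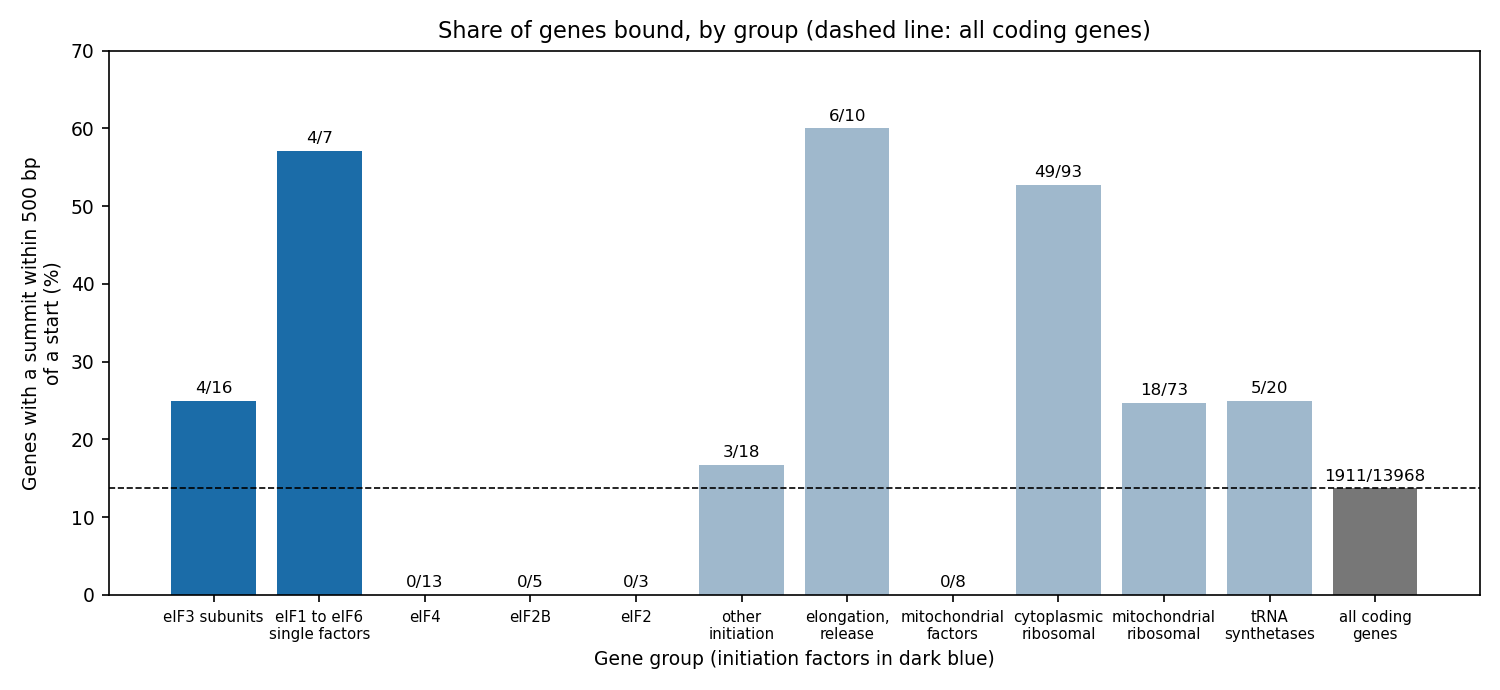
Share of genes with a thresholded pooled summit within 500 bp of a start (y axis, %), for the 5 groups of initiation factor genes (dark blue), 6 other lists of translation genes (light blue) and all coding genes (grey, dashed line at 13.7%). The count of bound genes over all genes stands above each bar. The single factors (4 of 7) and eIF3 (4 of 16) hold all 8 bound members, and eIF4, eIF2B and eIF2 stand at 0.

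The sequences under the summits are shown to compare what lay at the strongest point of the peaks. Each run covers 50 bp to each side of a summit on dm6, taken from NCBI's genome and read 5′ to 3′ on the strand of the named gene. Capitals mark any of 8 short motifs searched on both strands. They are the TATA box letters TATAAA, the DNA replication-related element (DRE) TATCGATA, its inner letters CGATA, the E box CACGTG, the GAGA factor letters GAGAG, the dinucleotide repeat CACACA, and a pair that came first in an earlier pass over these data, the letters AGATGGCG and the letters TATATTAA. The DRE is a core promoter element of many housekeeping genes in flies, and each DRE match is a CGATA match as well. The 5 bound members whose peaks lie on arms 2L, 3L and 3R come first. They are eIF1 (chr3L:3222979-3223079, plus strand), eIF3a (chr3R:4433892-4433992, minus strand), eIF2D (chr3R:29151834-29151934, minus strand), eIF5B (chr3L:3460633-3460733, minus strand) and eIF3h (chr2L:5052418-5052518, minus strand). The last 2 runs are a peak at eIF4EHP that the thresholded sets lack (chr3R:24109147-24109247, minus strand) and the peak upstream of eIF2Bbeta (chrX:2703842-2703942, plus strand).
eIF1: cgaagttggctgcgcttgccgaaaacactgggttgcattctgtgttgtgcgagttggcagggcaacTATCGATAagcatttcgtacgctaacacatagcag
eIF3a: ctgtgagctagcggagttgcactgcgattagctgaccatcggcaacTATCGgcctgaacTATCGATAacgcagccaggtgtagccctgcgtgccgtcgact
eIF2D: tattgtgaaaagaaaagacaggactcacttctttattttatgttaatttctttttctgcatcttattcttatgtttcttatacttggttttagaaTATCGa
eIF5B: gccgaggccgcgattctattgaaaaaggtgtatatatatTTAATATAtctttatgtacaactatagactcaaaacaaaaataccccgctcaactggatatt
eIF3h: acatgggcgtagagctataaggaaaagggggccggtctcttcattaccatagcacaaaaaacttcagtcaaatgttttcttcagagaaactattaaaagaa
eIF4EHP: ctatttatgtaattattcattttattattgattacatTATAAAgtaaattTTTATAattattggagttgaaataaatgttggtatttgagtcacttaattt
eIF2Bbeta: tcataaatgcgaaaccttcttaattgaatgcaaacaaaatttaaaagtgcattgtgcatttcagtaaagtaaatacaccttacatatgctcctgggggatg

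The windows at eIF1 and eIF3a each hold the DRE, and both are poor in A and T for this set. Within 50 bp of the summit 49.5% of bases were A or T at eIF1 and 42.6% at eIF3a. At the other 6 bound members the share was 61.4% (eIF3h), 63.4% (eIF6), 66.3% (eIF5B), 74.3% (eIF2D), 74.3% (eIF3c) and 77.2% (eIF3m). The DRE was in 2 of 8 member windows, against 2.25% of the 1334 pooled summits within 500 bp of a coding start. The TATA box letters TATAAA were in 2 of 8 (eIF3m and eIF6), against 23.5%, GAGAG was in 1 (eIF3c), against 6.97%, and TATATTAA in 1 (eIF5B), against 4.80%. CGATA was in 3 windows, those at eIF1, eIF2D and eIF3a, against 17.6%. The other motifs were in none of the 8, against 0.675% of promoter summits for CACGTG, 0.750% for AGATGGCG and 5.47% for CACACA. A match describes letters in a window and was not tested as a binding site.

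Over the 8 bound members the A and T share was 63.6 ± 12.3% (SD over summits), against 66.9 ± 10.2% over the 1334 promoter summits. In windows centred 500 bp to each side it was 50.4% for the members and 54.1% for all promoter summits. The summit was richer in A and T than its own flanks at 6 of 8 members. It was poorer at the 2 with the DRE in the summit window, eIF1 (49.5% at the summit and 61.9% in its flanks) and eIF3a (42.6% and 57.9%). The widest rises toward the summit were at eIF2D (74.3% at the summit and 39.6% in its flanks), eIF3c (74.3% and 44.1%) and eIF3m (77.2% and 47.5%).

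**Figure D2:**
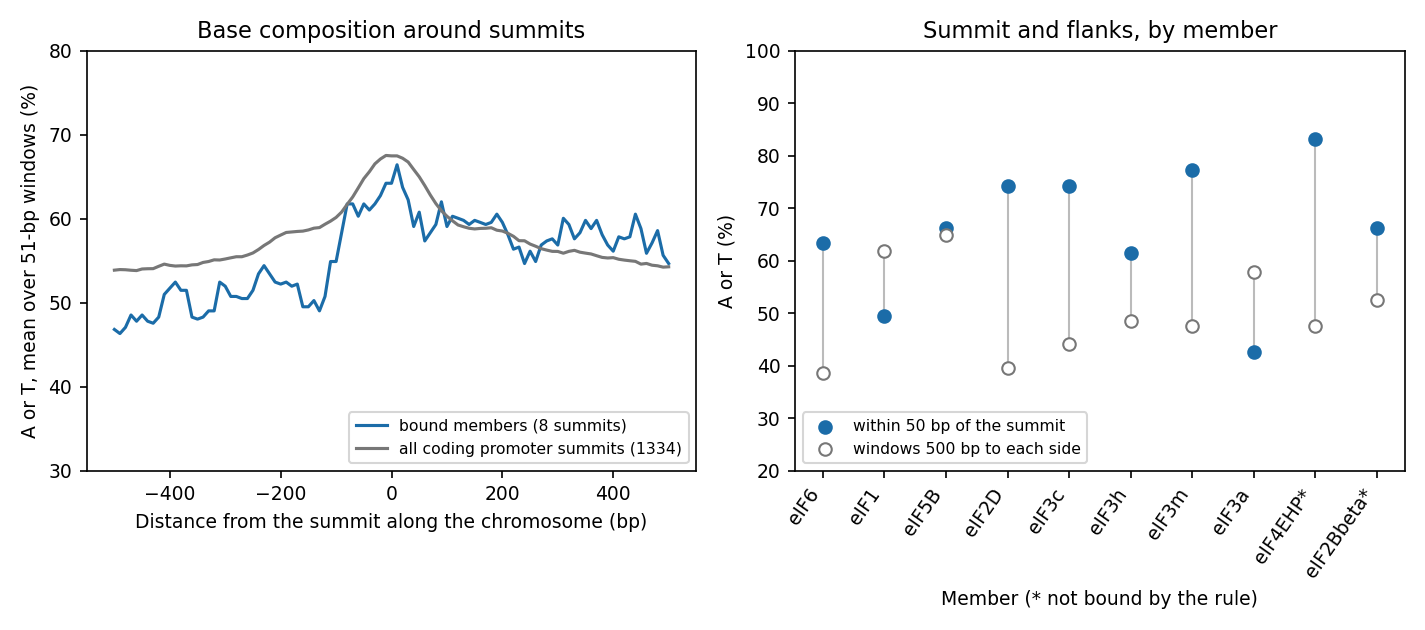
Left, the share of A and T (y axis, %, mean over summits in windows of 51 bp) by distance from the summit along the chromosome (x axis, bp), for the 8 bound members (blue) and all 1334 coding promoter summits (grey). Right, the share within 50 bp of each summit (filled) and in windows centred 500 bp to each side (open), where only eIF1 and eIF3a lie below their flanks and asterisks mark members not bound by the rule.

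eIF6 carried by far the strongest thresholded peak of the group. It encodes a factor that keeps the large ribosomal subunit from joining too early. Its peak (2R, 23850266 to 23850555) had a signal of 723 in replicate 1, 612 in replicate 2 and 1331 in the pooled list, where it ranked 10 in the thresholded set. Signals are the authors' own values per peak without a stated unit, and pooled values are on a higher scale than those of single replicates. The mean over replicates was 668 ± 78.1 at eIF6 and 82.1 ± 4.71 at eIF3c, the next bound member (SD, n = 2 each), so the gap was wider than the spread between replicates. The eIF6 summit lay 103 bp upstream of the eIF6 start, 74 bp inside the antisense RNA gene asRNA:CR45928 on the other strand, and in an intron of ytr. The start of asRNA:CR45928 was therefore the nearer of the pair.

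eIF1, which guards the accuracy of start codon choice, had a signal of 77.5 in replicate 1, 59.3 in replicate 2 and 149.8 in the pooled set (3L, 3222949 to 3223048). The summit lay 312 bp upstream of eIF1 (FBgn0035423) and only 69 bp upstream of RpL28, which encodes a protein of the large ribosomal subunit and is transcribed the other way. The DRE shown above lies in this space between the 2 starts. The small nucleolar RNA gene snoRNA:Or-CD11a also has a start within 500 bp, at 488 bp.

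eIF5B, the GTPase of subunit joining, had a signal of 68.0 in replicate 1, 71.5 in replicate 2 and 137 in the pooled set (3L, 3460513 to 3460852). The pooled summit lay in an intron, 80 bp upstream of the inner of the gene's 2 starts, and the replicates' own summits lay 137 and 145 bp upstream of it. The signals of the replicates nearly matched, yet the peak was in the thresholded set of replicate 2 (IDR 0.000277) and not in that of replicate 1 (IDR 0.0609).

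eIF2D can place tRNA on the ribosome without GTP. Its peak (3R, 29151714 to 29152053) had a signal of 40.4 in replicate 1, 50.2 in replicate 2 and 88.2 in the pooled set. The pooled value was the lowest of the 8, whereas in replicate 2 eIF3m and eIF3a were lower. The summit lay 90 bp upstream of the start, with no other gene start within 500 bp. It passed the threshold in the pooled and conservative sets, and in neither replicate's own set, where the IDR was 0.0533 in replicate 1 and 0.0104 in replicate 2.

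The 4 bound eIF3 genes, eIF3a, eIF3c, eIF3h and eIF3m, each encode a subunit of the scaffold. eIF3c (FBgn0034258; 2R, 17665473 to 17665812) had a signal of 85.5 in replicate 1, 78.8 in replicate 2 and 161 in the pooled set. Its summit lay 35 bp upstream of the start, at 34 and 36 bp in the replicates, and no other start lay within 500 bp. eIF3c was the only member bound in each of the 9 alternative settings tried, some of which only widen the rule and could not drop a bound member.

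eIF3h (FBgn0022023; 2L, 5052298 to 5052637) had a signal of 67.0 in replicate 1, 53.2 in replicate 2 and 120.4 in the pooled set. The summit lay in an intron, 312 bp downstream of the inner of the gene's 2 starts. A start of senju on the other strand lay 375 bp from it. Counted from the gene's 5′ end alone, eIF3h was not bound.

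eIF3m (FBgn0033902; 2R, 14164614 to 14164953) had a signal of 59.3 in replicate 1, 25.4 in replicate 2 and 93.2 in the pooled set. This was the widest spread among bound members relative to the mean, at 42.4 ± 24.0 (SD, n = 2). The peak was in replicate 1's own set and not in replicate 2's, where it ranked 11071 in the list before the threshold (IDR 0.247), and it was absent from the conservative set. The summit lay 41 bp downstream of the start, in the 5′ UTR, with a start of CG8323 at 267 bp.

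eIF3a (FBgn0037249; 3R, 4433772 to 4434111), whose product anchors the complex, had a signal of 40.5 in replicate 1, 45.9 in replicate 2 and 91.7 in the pooled set. It was in replicate 2's own set (IDR 0.00878) and not in replicate 1's (IDR 0.0946). The summit lay between 2 starts only 70 bp apart, 47 bp upstream of eIF3a and 23 bp upstream of CG1074 on the other strand. The DRE near the middle of the printed window lies close to this summit.

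By their mean over the replicates, the 8 members ran from eIF6 through eIF3c (82.1 ± 4.71), eIF5B (69.7 ± 2.50), eIF1 (68.4 ± 12.9), eIF3h (60.1 ± 9.79), eIF2D (45.3 ± 6.91) and eIF3a (43.2 ± 3.81) to eIF3m (42.4 ± 24.0), each as SD with n = 2. The values of eIF5B, eIF1 and eIF3h overlapped between neighbours, as did those of eIF2D, eIF3a and eIF3m. Of the 8, 4 were in both replicates' own sets (eIF1, eIF3c, eIF3h and eIF6), 3 were in one of them and 1 in neither. The median pooled signal was 129 for the bound members and 135 for the 1911 bound coding genes. Of the 8 members 1, eIF6, had one of the 300 strongest peaks, as did 265 of the 1911 bound coding genes.

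**Figure D3:**
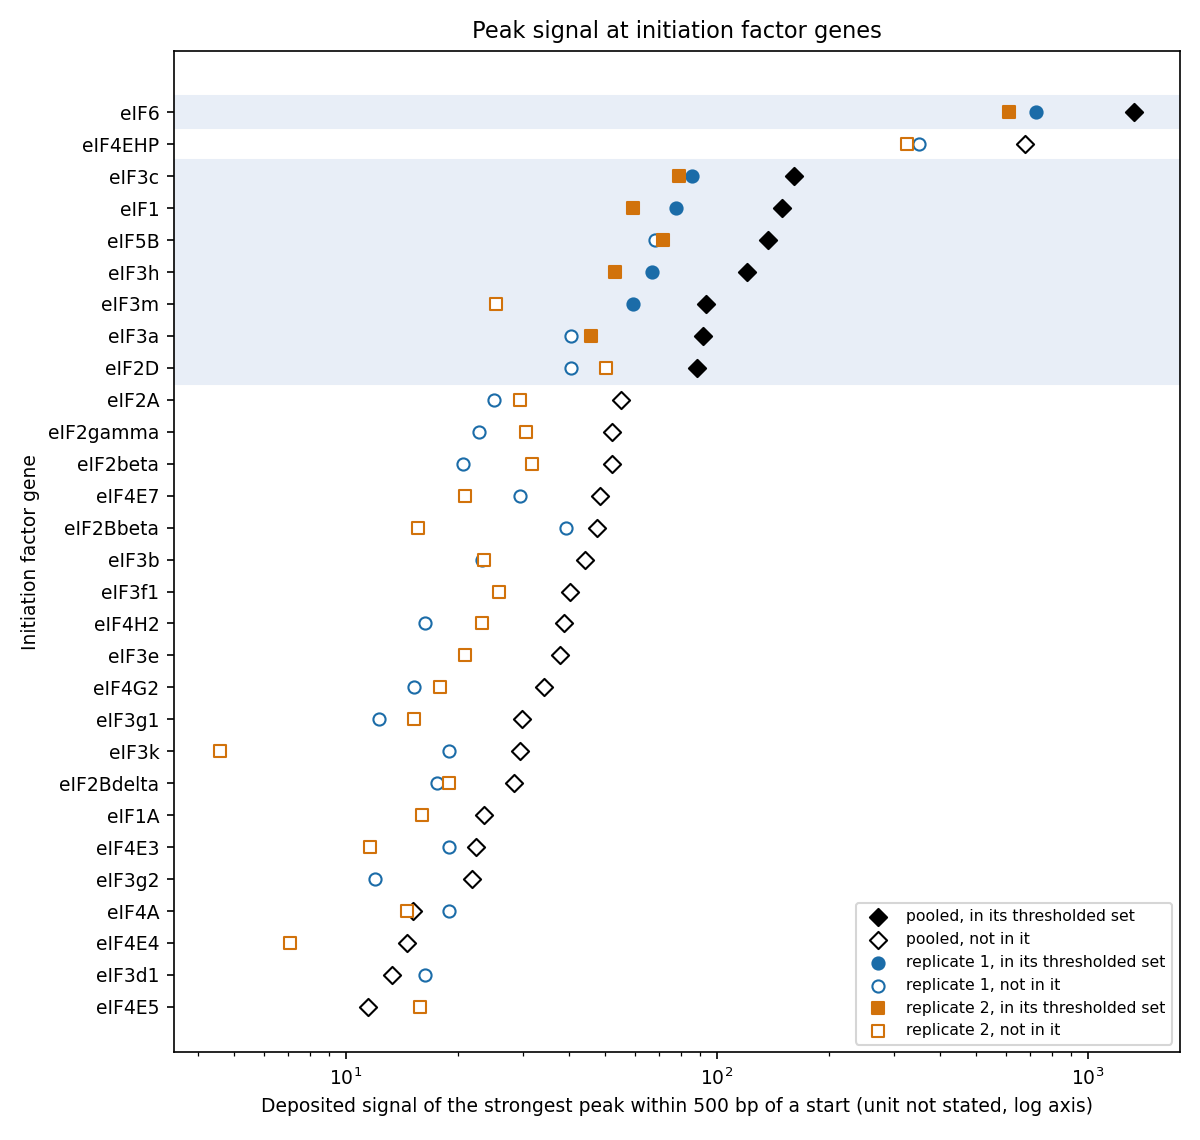
Deposited signal (x axis, log scale, unit not stated) of the peak at each of the 29 members with a peak within 500 bp of a start in the pooled list before the threshold (y axis), for pooled (diamonds), replicate 1 (circles) and replicate 2 (squares). Filled symbols are peaks in that list's thresholded set, and blue bands mark the 8 bound members. eIF6 stands at 1331 pooled and eIF4EHP, with open symbols only, at 678.

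Most summits at bound members lay close upstream of a start. The median distance was 85.0 bp for the members and 149 bp for the 1911 bound coding genes, and 6 of 8 summits lay upstream of the start, against 88.4% of bound coding genes. The 5 within 100 bp were eIF2D, eIF3a, eIF3c, eIF3m and eIF5B (62.5% of the 8), against 531 of the 1911 bound coding genes (27.8%). For 5 of the 8 members another gene also had a start within 500 bp of the summit, and at eIF1, eIF3a and eIF6 that start was the nearer. Only eIF2D, eIF3c and eIF5B had no other start there. A peak between 2 starts cannot be assigned to either gene from its position.

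**Figure D4:**
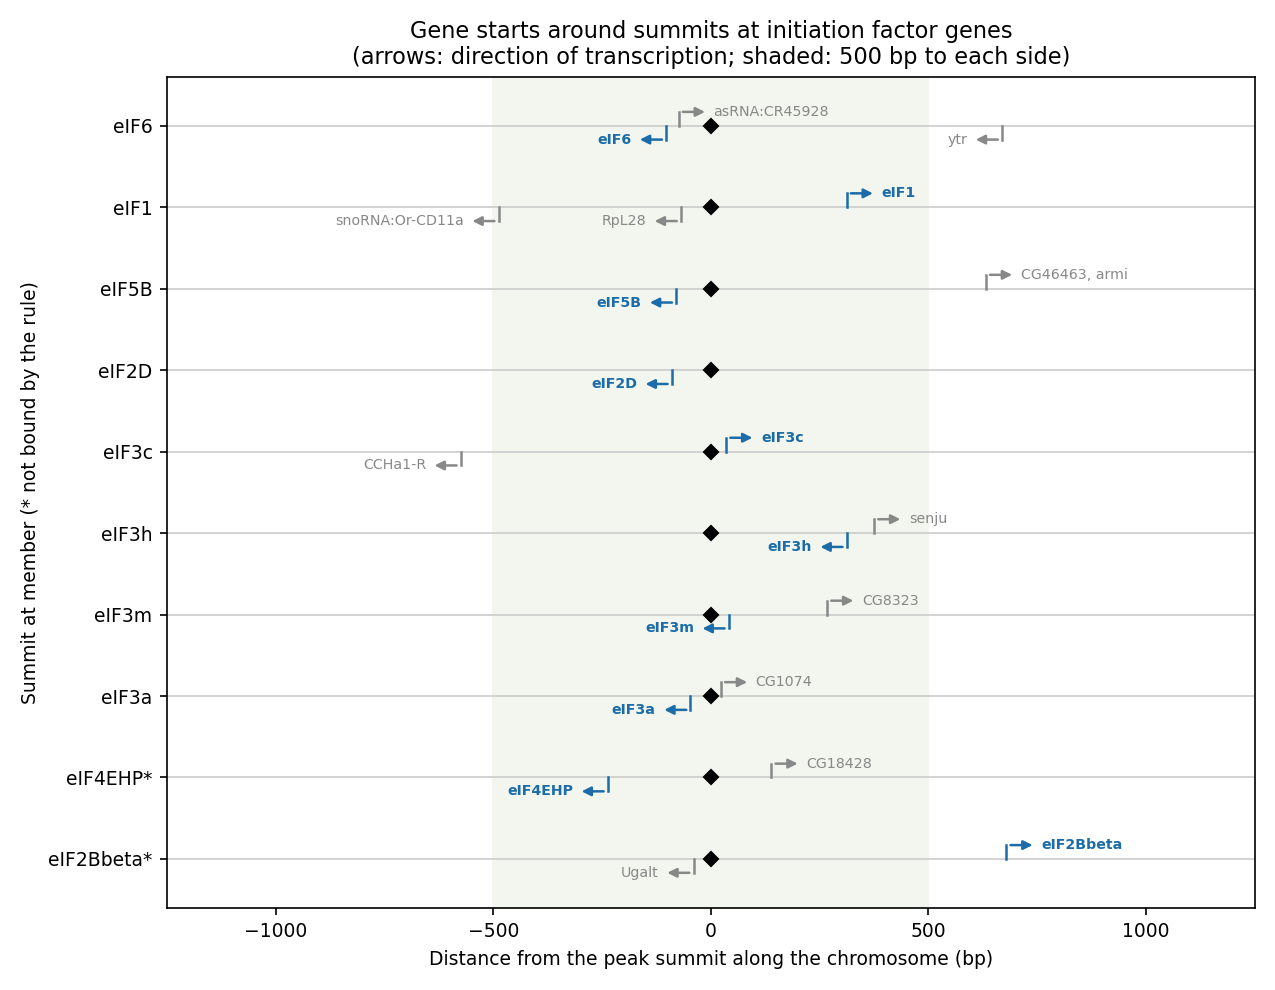
Positions of gene starts (x axis, bp along the chromosome from the summit) around the summit (diamond) at the 8 bound members and at eIF4EHP and eIF2Bbeta, which are not bound by the rule (y axis). Arrows give the direction of transcription, with the member in blue and other genes in grey. The summit lies nearer to the start of another gene at eIF6, eIF1 and eIF3a, and the eIF2Bbeta start lies 679 bp away, outside the shaded 500 bp.

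Of the 36 unbound members, 21 had a peak within 500 bp of a start in the authors' pooled list before the threshold, and 15 had none. That list is long, with 143047 peaks, and such a peak was present at 29 of the 44 members (65.9%) and at 10902 of the 13968 coding genes. Among the 21, 1 stood apart. At eIF4EHP the pooled list held a peak of signal 678 and rank 78 (3R, 24109026 to 24109349), the second highest of any member after eIF6.

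eIF4EHP encodes a cap-binding relative of eIF4E that does not recruit the scaffold eIF4G and is known to repress maternal mRNAs in the fly embryo. Its peak had a signal of 350.1 in replicate 1 and 326 in replicate 2, a mean of 338 ± 17.2 (SD, n = 2), with an IDR of 1e-05 in each of the 4 lists. All 4 thresholded sets nevertheless lack it. In all, 84 pooled peaks on the arms with an IDR of 0.01 or less were absent from the pooled thresholded set, and this was the only one within 500 bp of a member. No reason for their absence was found. By their headers, the thresholded lists drew on an unnamed input beyond those of the ranked lists. What that input held is unknown, and whether it removed these peaks was not tested. The signal at eIF4EHP therefore cannot be read as binding on its own. Only 74 kept pooled peaks had a higher signal. The summit lay 237 bp upstream of eIF4EHP and 139 bp upstream of CG18428, which faces it, and 83.2% of bases within 50 bp were A or T, above each of the 8 bound members. With left-out peaks put back, 9 of 44 members were bound (20.5%), against 14.0% of coding genes.

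eIF2Bbeta, a regulatory subunit of the exchange factor for eIF2, lay just outside the window. It was the only unbound member with a thresholded summit between 500 and 1000 bp from a start. That summit, 679 bp upstream, belonged to the strongest pooled peak of the whole set, at 2235 (X, 2703706 to 2704057), and lay 40 bp upstream of Ugalt, a UDP-galactose transporter gene on the other strand. Next to its own start eIF2Bbeta had a weaker peak before the threshold, at 39.2 in replicate 1, 15.6 in replicate 2 and 47.4 in the pooled list. eIF3h and eIF1, at 312 bp each, were the members nearest to the edge of the window on its inner side.

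The other unbound members with a peak before the threshold ran from 11.5 at eIF4E5 to 55.2 at eIF2A, with a median of 32.0 over 20 genes. The highest were eIF2A (25 in replicate 1, 29.4 in replicate 2), eIF2gamma (22.9 and 30.6) and eIF2beta (20.7 and 31.8). eIF2gamma and eIF2beta are subunits of the complex that carries the initiator tRNA. eIF2gamma came closest to the threshold among these, with a pooled IDR of 0.0147, whereas eIF3a passed with 0.00678. In replicate 2 the value of the bound member eIF3m, 25.4, lay below those of the unbound eIF2A, eIF2gamma, eIF2beta and eIF3f1. In replicate 1 the lowest bound value was 40.4, at eIF2D, above the highest of these 20, 39.2 at eIF2Bbeta. The core of the cap-binding complex was low or unlisted: eIF4A, the helicase, had 15.2 in the pooled list, and eIF4E1, the main cap-binding protein, and eIF4G1, its scaffold, had no pooled peak within 500 bp. These 3 genes were picked for their role after their values were seen.

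Bound and unbound members were also set side by side in features of their genes. Several annotated starts were present at 4 of 8 bound members and 11 of 36 unbound ones (30.6%), against 44.8% of bound and 23.6% of unbound coding genes. The number of starts is not independent of the rule, since a summit near any start counts. A coding gene on the other strand with a start within 500 bp was present at 5 of 8 bound and 13 of 36 unbound members (62.5% and 36.1%), against 56.1% of bound and 23.3% of unbound coding genes. The region from 250 bp before to 50 bp after the gene's 5′ end had a median A and T share of 62.5% in bound and 63.8% in unbound members, against 63.1% in bound and 61.8% in unbound coding genes. Gene length had a median of 1900.5 bp in bound members and 2124 bp in unbound ones, against 3082 bp in bound and 2046 bp in unbound coding genes. For both measures the order of bound and unbound was thus the opposite among members and among all coding genes. Bound members were on 2L (1 of 3), 2R (3 of 9), 3L (2 of 11) and 3R (2 of 13), and none of the 7 on X or the 1 on chromosome 4 was bound. Over all arms 13.7% of coding genes were bound. That share was not counted by arm, so these counts cannot tell whether the arms differ. With 8 bound members these differences were not tested.

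Motifs were also counted in the start regions, with no test of any difference. The DRE was in 12 of 44 member regions (27.3%), 3 of 8 bound and 9 of 36 unbound, against 9.36% of the 13968 coding genes. The bound ones were eIF3a, eIF3c and eIF6, and not eIF1. Unlike at eIF3a, the summits at eIF3c (74.3%) and eIF6 (63.4%) were richer in A and T than their flanks (44.1% and 38.6%). TATAAA was in 45.5% of member regions and 45.9% of all, GAGAG in 15.9% and 29.8%, and the E box CACGTG in 6.82% and 4.23%. CGATA was in 61.4% and 47.4%, and CACACA in 15.9% and 19.3%. AGATGGCG was in 1 of 44 (eIF3d1), against 0.966%, and TATATTAA in 1 (eIF4E5), against 5.36%.

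Other genes of translation were set beside the members, from lists chosen by name. Of 18 other genes of initiation and its control, 3 were bound (16.7%). These were larp, which encodes an RNA-binding protein of ribosomal protein mRNAs, Thor, the fly 4E-BP that blocks eIF4E, and vas, a germline helicase. larp had 77.6 in replicate 1, 61.7 in replicate 2 and 142 pooled, with its summit 136 bp upstream of a start. Thor had 31.5, 53.3 and 83.6 in the same order, and its summit lay 37 bp upstream. Its peak was in replicate 2's own set and not in replicate 1's. vas had 42.8 in replicate 2 and 67.3 pooled, with no overlapping peak listed in replicate 1, and was in neither replicate's own set. The unbound genes of this list were 4E-T, DENR, Gcn2, Larp4B, Lk6, MCTS1, NAT1, PEK, PPP1R15, Paip2, bel, cup, mxt, pAbp and pix.

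Of 10 genes of elongation and release, 6 were bound. eEF1gamma, an exchange factor subunit, had the highest signal, at 146 in replicate 1, 152 in replicate 2 and 289 pooled, with its summit 30 bp upstream. The release factor genes eRF1 and eRF3 had pooled signals of 174 and 139, and eEF5 and eEF1alpha1 had 123 and 106. eEF2, the translocase, had 48.6 in replicate 2 and 77.7 pooled, with no overlapping peak listed in replicate 1, and was in neither replicate's own set. eEF1alpha2, eEF1beta, eEF1delta and eEFSec were unbound, as were all 8 matched genes of mitochondrial translation factors. Cytoplasmic ribosomal protein genes had 49 of 93 bound (52.7%), mitochondrial ribosomal protein genes 18 of 73 (24.7%) and tRNA synthetase genes with symbols ending in RS 5 of 20. The initiation factors, at 18.2%, stood below the elongation and release, ribosomal protein and synthetase lists, and nearer to the 13.7% of all coding genes. They stood above the other genes of initiation (16.7%) and the mitochondrial translation factors, where none was bound. These shares were not tested against each other.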

How the data were processed

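Peak lists from 2 replicates of 1 group were used. Per the file headers and labels, each replicate and the pooled data have ranked peaks and an IDR-thresholded subset on dm6, and a conservative pooled pair was deposited too. The deposited signal per peak has no stated unit, and the authors' score, which derives from the IDR, was used only to match each thresholded list to its ranked list. Ranked lists also hold the −log10 of that rate as the authors deposited it. The sources used here do not name the peak caller or aligner, nor state a read depth, and the control library was not analysed here. In the pooled ranked lists 16 unnamed columns of input values were not used.

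Genes and starts came from Ensembl release 115 and sequence from NCBI, both in dm6 coordinates. Each gene took its strongest peak with a summit within 500 bp of a start. Replicate values come from each replicate's ranked list: the strongest peak that overlaps the pooled one, or for unbound members the strongest within 500 bp. No test was run, since there is 1 group and genes are not replicates. Wilson intervals are at the 95% level. Distances were checked on planted summits. Scripts ran under Python 3.11.15, with pandas 2.3.3 for tables, numpy 2.4.6 for arrays and scipy 1.17.1 for intervals.

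All members are accounted for, and bound members are given in full. Unbound members were named for a summit 500 to 1000 bp away, or for one of the 4 highest ranked-list signals. Others, such as eIF4A and the numbered copies, were named after their values were seen. Of the list symbols, 4 were synonyms of members and mEFG2 had no match. The members and lists were chosen with earlier results of these data known, and the setting that puts left-out peaks back was chosen after seeing the data.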

Additional observations from a re-analysis of the deposited data

How the results depend on the processing

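The count of 8 bound members was 5 with a window of 100 bp and 5 with the stronger 1775 pooled peaks. With either replicate left out it ran from 5 to 6. In the other settings it lay between 7 and 11, the last with 18 further initiation genes added (62 genes in all). The median signal of 129 was 93.2 with the window of 100 bp and ran from 65.4 to 77.5 in single replicates, whose scale is lower. The median distance of 85.0 bp ran from 90.0 to 126 bp with a replicate left out, and the A and T share of 63.6% from 56.8 to 63.0%, with fewer members bound and summits placed anew. Of the bound members, eIF2D and eIF3m were bound in 6 of 9 alternative settings and eIF3a and eIF3h in 7. eIF1, eIF5B and eIF6 were bound in 8 and eIF3c in 9. The settings with 1000 bp, any base of the peak or left-out peaks put back only widen the rule. No bound member could drop out in those, so the tallies overstate how steady the calls were. No paired analysis was possible because there is 1 group. The read depth is unknown, so absence of a peak is only absence at these thresholds.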

Other observations

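Thresholded summits beyond the windows used lay near several unbound members. The nearest was 1281 bp from eIF2Bgamma (pooled signal 85.8), 1297 bp from eIF3d1 (265), 1381 bp from eIF3g1 (185) and 1957 bp from eIF3l (56.6). At the other 31 unbound members the nearest summit was over 2000 bp away.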
